A study of Mus musculus with 4 samples.

Results

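Cholesterol metabolism in the testis was followed through 30 genes in mice with a conditional knockout (cKO) of Sympk, which encodes symplekin, a scaffold protein of the machinery that cleaves and polyadenylates the 3' ends of messenger RNAs. The genes were chosen by name for their roles, with earlier results of these data known. Of the 30, 18 encode enzymes of cholesterol synthesis and 5 encode the SREBP proteins and their regulators. Another 4 act in uptake and transport inside the cell, and 3 act in export and storage. All 30 had a row in the deposited table of 53465 genes, and all 30 were among the 21822 genes with enough reads to be tested, so no gene of the set was lost to the filter on low counts. The set does not hold every gene of the pathway.

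The RNA came from whole testes of male mice at postnatal day 18, on a mixed C57BL/6-ICR background. The series has 2 libraries of Sympk cKO mice, in which Stra8-Cre drives the deletion, and 2 libraries of wild-type mice (WT). Stra8-Cre acts in male germ cells from the spermatogonial stage on, so the somatic cells of these testes are not its target. The labels do not say whether a library came from 1 animal or from a pool, or whether the WT mice carried a floxed allele.

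Cells make cholesterol from acetyl-CoA through mevalonate, the isoprenoid pyrophosphates, squalene and lanosterol. When sterols are scarce, SCAP carries the SREBP proteins from the endoplasmic reticulum to the Golgi, where proteases release their active part, and INSIG proteins hold SCAP back when sterols are plentiful. When oxysterols accumulate, LXR receptors turn on the exporters ABCA1 and ABCG1. In the testis, Sertoli cells take up lipoprotein cholesterol and engulf dying germ cells, Leydig cells use cholesterol for testosterone, and the germ cells behind the blood-testis barrier make sterol intermediates of their own. The product of Cyp51, for example, is one of the sterols known as meiosis-activating.

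Library totals ran from 32730868 to 40994172 counts in the cKO and from 37764044 to 41584389 counts in WT, and the 30 genes held between 284 and 27817 counts in a library. Levels are CPM (counts in every 1000000) after TMM scaling, a correction for differences in library composition. Sympk itself had 171.5 and 173.2 CPM in the cKO libraries, against 225.2 and 192.0 CPM in the WT libraries, a log2 fold change of -0.28 (SE 0.14, adjusted p = 0.132, edgeR's quasi-likelihood test). That difference did not pass the threshold of 0.05 with all libraries, and it passed without WT replicate 2 (log2 fold change -0.41, adjusted p = 0.0313). Counts mapped to mitochondrial genes made up 10.2% and 8.81% of the cKO libraries, against 4.93% and 4.01% of the WT libraries. Every testis cell type checked had its markers in the table, and in whole testis fewer cells of a type and less RNA per cell cannot be told apart.

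Promoter sequences are shown for Hmgcs1 and Msmo1, which were called higher in the cKO, and for Idi1 and Insig2, which were called lower. RefSeq's promoter table (GRCm38.p6, 250 bases before to 50 after each start) had entries for 23 of the 30 genes, in 31 windows. It had none for Fdps, Fdft1, Sqle, Scarb1, Npc1, Stard4 and Abcg1, so these were not searched. It was searched on both strands for TCACNCCAC, the core of the sterol regulatory element that SREBP binds, for the CCAAT box of NF-Y and the GC box GGGCGG of SP1, which act beside it, and for the cAMP response element TGACGTCA. No found motif overlapped another in these windows. The 250 bases before the start are printed 5' to 3' in the direction of transcription, with capitals for every motif found. They lie at chr13:119690101-119690350 on the plus strand for Hmgcs1, chr8:64733579-64733828 on the minus strand for Msmo1, chr13:8885356-8885605 on the plus strand for Idi1, and chr1:121332590-121332839 on the minus strand for the outermost of the 3 starts listed for Insig2.
Hmgcs1: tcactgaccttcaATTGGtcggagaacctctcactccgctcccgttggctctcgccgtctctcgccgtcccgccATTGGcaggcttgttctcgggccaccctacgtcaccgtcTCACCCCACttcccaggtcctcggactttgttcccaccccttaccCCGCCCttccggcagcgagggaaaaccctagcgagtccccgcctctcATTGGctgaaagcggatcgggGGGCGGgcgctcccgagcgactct
Msmo1: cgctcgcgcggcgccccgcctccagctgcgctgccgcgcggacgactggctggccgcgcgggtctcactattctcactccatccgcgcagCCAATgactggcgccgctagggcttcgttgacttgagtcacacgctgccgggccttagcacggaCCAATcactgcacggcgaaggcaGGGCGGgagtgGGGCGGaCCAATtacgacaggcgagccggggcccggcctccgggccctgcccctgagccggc
Idi1: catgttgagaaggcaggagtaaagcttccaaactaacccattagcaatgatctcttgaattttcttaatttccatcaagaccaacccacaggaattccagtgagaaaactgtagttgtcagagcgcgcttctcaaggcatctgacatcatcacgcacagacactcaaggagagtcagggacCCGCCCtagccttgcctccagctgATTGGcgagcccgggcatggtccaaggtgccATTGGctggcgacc
Insig2: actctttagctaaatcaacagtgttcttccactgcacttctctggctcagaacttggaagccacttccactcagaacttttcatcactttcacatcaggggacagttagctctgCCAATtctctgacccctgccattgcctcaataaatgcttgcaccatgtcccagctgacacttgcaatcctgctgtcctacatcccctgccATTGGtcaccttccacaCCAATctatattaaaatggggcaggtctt

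All 4 printed windows carried the CCAAT box. The other windows of Insig2 did not, nor did the windows of Abca1, Acat2 and Scap, which were called higher. The sterol regulatory element core was found in 1 of the 31 windows, that of Hmgcs1, 137 bases before the start, and in 1.24% of all 32851 promoters in the table. The CCAAT box was found in 67.7% of the 31 windows and in 37.4% of all promoters. The GC box was found in 83.9% of the 31 windows and in 35.7% of all promoters. No window held the cAMP response element, which 1.79% of all promoters did. These shares describe letters in a short window, and no test was made of them.

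Across the set, 16 of the 30 genes were called higher in the cKO, 4 were called lower and 10 did not pass the test (edgeR's quasi-likelihood test, Benjamini-Hochberg adjusted p under 0.05 over all genes tested). Of all genes tested, 63.4% were called, 29.2% higher and 34.3% lower. The median log2 fold change was 0.54 over the 30 genes, which ranged from -1.74 for Fdft1 to 2.03 for Abcg1, and -0.023 over all genes. In 22 of the 30 genes both cKO libraries lay above both WT libraries, as in 40.9% of all genes, and in 4 both lay below, as in 42.9% of all genes. The libraries overlapped in Lss, Tm7sf2, Sc5d and Stard4. With 1 library left out at a time, the median of the 30 genes ran from 0.49 to 0.67. Some calls were lost, as given below.

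The size of these differences depended on what the libraries were scaled to. The 14 Sertoli cell markers summed to 6553 and 5790 CPM in the cKO, against 2684 and 2886 CPM in WT, and their median log2 fold change was 1.33, with 12 called higher and none called lower. When each library was instead scaled to the sum of these markers, the log2 fold change turned negative in 23 of the 30 genes, the counts became 2 called higher (Abca1 and Abcg1) and 17 called lower, and the median of the 30 was -0.61 beside -1.16 over all genes. On that scale 2.18% of all genes tested were called higher and 60.4% lower, and the counts given below for the Sertoli scale stand beside these shares. Most of the marker sum was Clu, with 4038 and 3447 CPM in the cKO, against 1735 and 1834 CPM in WT (log2 fold change 1.07). The Sertoli scale therefore rests largely on that gene. Idi1, Fdft1, Sqle and Insig2 were called lower on both scales. Directions below are on the TMM scale, and the counts called on it stand beside 29.2% of all genes higher and 34.3% lower.

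**Figure D1:**
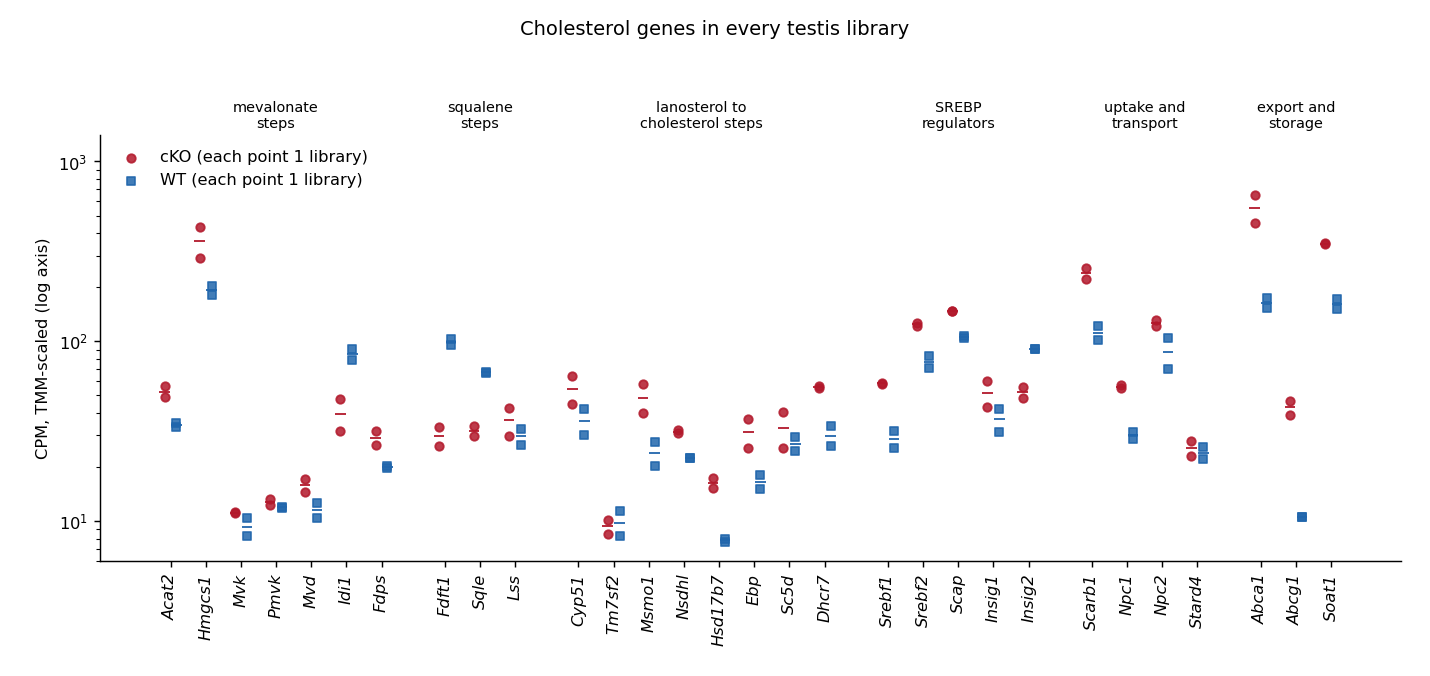
Level of each of the 30 genes in every library, in CPM after TMM scaling on a log axis, grouped by role; red circles are cKO libraries, blue squares are WT libraries and short bars are group means of 2. Idi1, Fdft1, Sqle and Insig2 are the genes with both red circles below both blue squares, while Abca1 and Abcg1 show the widest gap in the other direction.

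The mevalonate steps build isoprenoid pyrophosphates from acetyl-CoA. Of their 7 genes, 3 rose and 1 fell, with a median log2 fold change of 0.47; scaled to the Sertoli markers, none was called higher and 6 were called lower. Hmgcs1, which encodes the cytosolic HMG-CoA synthase (ENSMUSG00000093930, chromosome 13: 119690379 to 119708260, GRCm38), had 429.9 and 289.1 CPM in the cKO, against 181.8 and 201.8 CPM in WT. The cKO libraries differed from each other by more than the WT libraries did, and both lay above them. The log2 fold change was 0.91 (SE 0.21, adjusted p = 0.0108); without cKO replicate 1 it was 0.60 and missed the threshold (adjusted p = 0.0557).

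Idi1 encodes the isomerase that interconverts the isoprenoid units isopentenyl and dimethylallyl pyrophosphate, and it was the mevalonate gene that fell. It had 47.8 and 31.5 CPM in the cKO, against 90.6 and 79.0 CPM in WT (ENSMUSG00000058258, chromosome 13: 8885501 to 8892451). Both cKO libraries lay below both WT libraries. The group means were 39.7 ± 11.5 CPM in the cKO and 84.8 ± 8.14 CPM in WT (SD, n = 2 each), a level 2.14-fold lower in the cKO (log2 fold change -1.10, SE 0.22, adjusted p = 0.00586).

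Acat2, a cytosolic acetoacetyl-CoA thiolase that supplies the first step, had 56.2 and 49.0 CPM in the cKO, against 33.3 and 35.03 CPM in WT. Its log2 fold change was 0.62 (SE 0.15, adjusted p = 0.0106), a call that did not hold without cKO replicate 1 (adjusted p = 0.0903). Fdps, the farnesyl pyrophosphate synthase, had 31.8 and 26.4 CPM in the cKO, against 19.8 and 20.4 CPM in WT. Its call (log2 fold change 0.53, SE 0.16, adjusted p = 0.0287) was lost without WT replicate 1 (adjusted p = 0.0671), WT replicate 2 (0.0611) or cKO replicate 1 (0.213), and with the replicate number as a block (0.0589). Acat2 has a near-identical paralog, Acat3, and Fdps shares 1124 exon bases with Gm43738 on the same strand, so both values are uncertain where the authors' counting could split reads.

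The mevalonate kinase gene Mvk, the phosphomevalonate kinase gene Pmvk and the decarboxylase gene Mvd did not pass the test. Mvk had 11.1 and 11.2 CPM in the cKO, against 8.27 and 10.4 CPM in WT (log2 fold change 0.26, adjusted p = 0.283). Pmvk had 12.3 and 13.2 CPM in the cKO, against 12.05 and 11.9 CPM in WT (0.094, adjusted p = 0.646). Mvd had 17.3 and 14.6 CPM in the cKO, against 10.4 and 12.6 CPM in WT (0.47, adjusted p = 0.0743). In all 3 genes the lower cKO library was above the higher WT library, as in 40.9% of all genes tested.

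The squalene steps commit isoprenoids to sterols. Of their 3 genes, Fdft1 and Sqle fell and Lss did not pass the test. Fdft1 encodes squalene synthase, which joins farnesyl pyrophosphate pairs into squalene (ENSMUSG00000021273, chromosome 14: 63145150 to 63179578). It had 33.4 and 26.2 CPM in the cKO, against 103.6 and 95.5 CPM in WT. The group means of 29.8 ± 5.07 CPM in the cKO and 99.5 ± 5.68 CPM in WT (SD, n = 2 each) put Fdft1 3.34-fold lower in the cKO (log2 fold change -1.74, SE 0.17, adjusted p = 3.4e-04), the largest fall of the 30 genes. Fdft1 shares 774 exon bases with Ctsb on the opposite strand, and Ctsb, a lysosomal protease gene, had 362.4 and 341.0 CPM in the cKO, against 139.9 and 186.4 CPM in WT. The strand setting of the counts is not given in the sources used here, so reads from the shared stretch cannot be told apart. The log2 fold change of Ctsb was 1.11, and -0.031 on the Sertoli scale.

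Sqle encodes squalene epoxidase, a rate-limiting step of sterol synthesis (ENSMUSG00000022351, chromosome 15: 59315077 to 59331192). It had 33.7 and 29.9 CPM in the cKO, against 66.7 and 67.7 CPM in WT. Both cKO libraries were below both WT libraries, and the libraries of each genotype lay close together. The group means were 31.8 ± 2.65 CPM in the cKO and 67.2 ± 0.693 CPM in WT (SD, n = 2 each), 2.11-fold lower in the cKO (log2 fold change -1.08, SE 0.14, adjusted p = 0.00106). Lss, whose lanosterol synthase closes the sterol rings, had 42.8 and 29.9 CPM in the cKO, against 32.7 and 26.6 CPM in WT, and its groups overlapped (log2 fold change 0.29, SE 0.22, adjusted p = 0.276).

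From lanosterol to cholesterol, the direction was the other one: of 8 genes, 5 rose and none fell, with a median log2 fold change of 0.75, while scaling to the Sertoli markers gave none higher and 3 lower. Msmo1, the C4 methyl sterol oxidase (ENSMUSG00000031604, chromosome 8: 64718139 to 64733792), had 57.6 and 39.8 CPM in the cKO, against 20.2 and 27.5 CPM in WT. Its means of 48.7 ± 12.6 CPM in the cKO and 23.8 ± 5.16 CPM in WT (SD, n = 2 each) differed 2.04-fold (log2 fold change 1.03, SE 0.24, adjusted p = 0.0107), a call lost without WT replicate 1 (adjusted p = 0.0501) or cKO replicate 1 (0.0537). Both cKO libraries of Msmo1 lay above both WT libraries, with a gap narrower than that between the cKO libraries. Hsd17b7, the 3-keto reductase of the same C4 demethylation (ENSMUSG00000026675, chromosome 1: 169949535 to 169969241), had 17.4 and 15.3 CPM in the cKO, against 7.69 and 7.99 CPM in WT. It was 2.08-fold higher in the cKO, at 16.3 ± 1.48 CPM beside 7.84 ± 0.213 CPM in WT (SD, n = 2 each; log2 fold change 1.06, SE 0.18, adjusted p = 0.00284), and no single library decided that call.

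Nsdhl, the decarboxylating dehydrogenase between Msmo1 and Hsd17b7 in this step, rose less. It had 30.8 and 32.0 CPM in the cKO, against 22.6 and 22.5 CPM in WT (log2 fold change 0.48, SE 0.14, adjusted p = 0.0259). This did not hold without WT replicate 2 (adjusted p = 0.0515), cKO replicate 1 (0.115) or cKO replicate 2 (0.139), and with the replicate block (0.0652). The other enzymes that rose act late. Ebp, the sterol isomerase, had 37.1 and 25.5 CPM in the cKO, against 15.01 and 18.2 CPM in WT (log2 fold change 0.91, SE 0.23, adjusted p = 0.0132), and lost its call without WT replicate 1 (adjusted p = 0.0624) or cKO replicate 1 (0.0816). Dhcr7, the reductase that makes cholesterol from 7-dehydrocholesterol, had 56.2 and 55.0 CPM in the cKO, against 26.0 and 33.8 CPM in WT (log2 fold change 0.89, SE 0.17, adjusted p = 0.00482).

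Cyp51, Tm7sf2 and Sc5d did not pass the test. Cyp51, the lanosterol 14-demethylase, had 64.5 and 44.8 CPM in the cKO, against 30.1 and 42.0 CPM in WT (log2 fold change 0.60, SE 0.24, adjusted p = 0.0690). It was 0.84 without WT replicate 2 (adjusted p = 0.0455) and 0.85 without cKO replicate 2 (0.0316), which pass, and 0.37 without WT replicate 1 (0.250) and 0.32 without cKO replicate 1 (0.358), which do not. Cyp51 shares 166 exon bases with Akap9 on the opposite strand, which rose (log2 fold change 1.03, 0.67 without WT replicate 2 and -0.13 on the Sertoli scale). The cKO and WT libraries of Cyp51 did not overlap. Tm7sf2, a C14 sterol reductase, had 10.2 and 8.52 CPM in the cKO, against 11.3 and 8.30 CPM in WT (log2 fold change -0.070, adjusted p = 0.806), and it shares 532 exon bases with Vps51. Sc5d, the C5 desaturase, had 40.7 and 25.5 CPM in the cKO, against 24.5 and 29.3 CPM in WT (log2 fold change 0.30, adjusted p = 0.329). In Tm7sf2 and Sc5d the libraries of the genotypes overlapped.

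**Figure D2:**
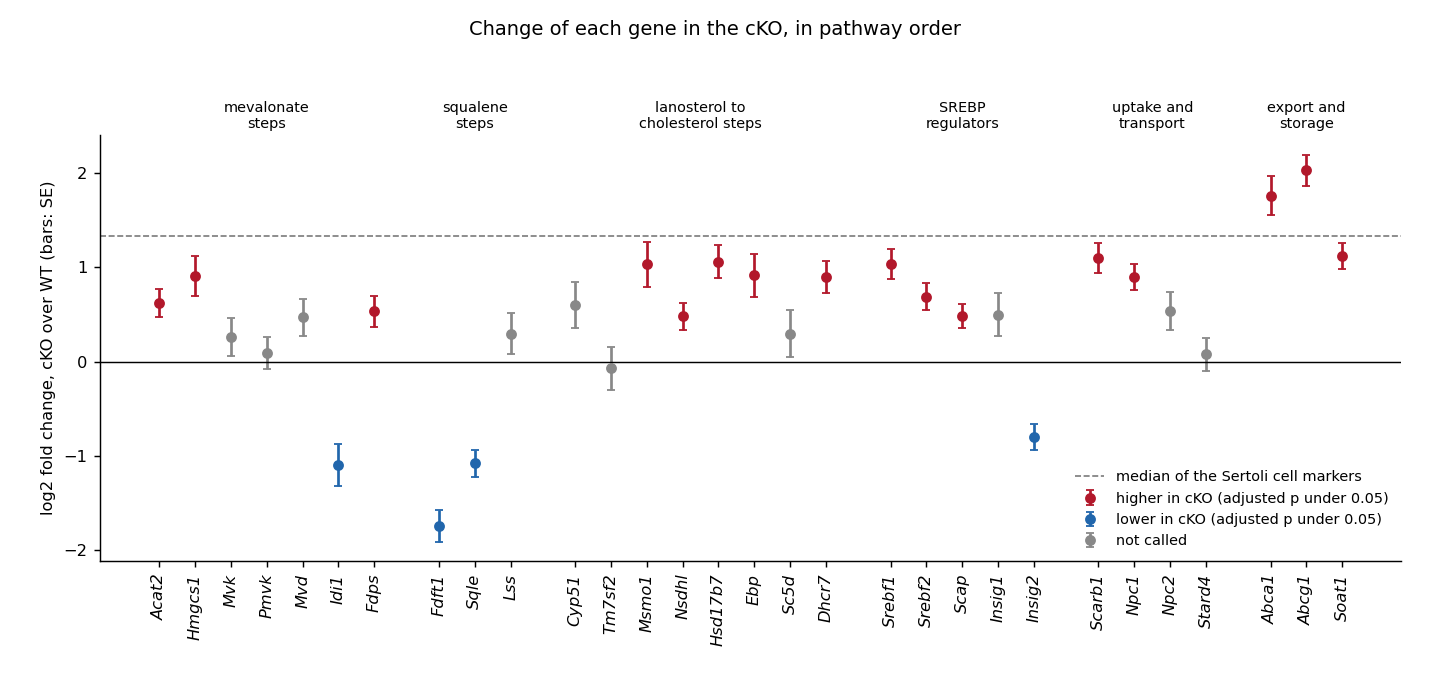
Log2 fold change of each gene, cKO over WT, in pathway order, with bars of 1 SE; red genes were called higher, blue genes lower and grey genes neither, and the dashed line is the median of the Sertoli cell markers at 1.33. On the TMM scale the blue points are Idi1, Fdft1, Sqle and Insig2. The points above the dashed line are Abca1 and Abcg1, which are also called higher when libraries are scaled to the Sertoli markers. That scaling uses the summed counts of the markers, so the line does not mark where it turns the sign.

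Levels can be compared between genes per length only, with the FPKM values of the deposited table, which divide a count by the length of the gene and the total of the library. In the cKO libraries the highest mean FPKM among the 30 genes belonged to Hmgcs1 (57.2 ± 13.3) and Abca1 (56.1 ± 11.5), which did not differ beyond their spread (SD, n = 2). In WT the highest belonged to Hmgcs1 (26.3 ± 2.57 FPKM), followed by Idi1 (16.3 ± 1.18), Srebf2 (14.3 ± 1.20), Abca1 (14.3 ± 0.900) and Fdft1 (13.9 ± 0.464), and the last 3 of these did not differ beyond their spread. By mean FPKM among the 30 genes, Idi1 ranked 14 in the cKO and 2 in WT, Fdft1 ranked 22 in the cKO and 5 in WT, Sqle ranked 25 in the cKO and 13 in WT, and Abcg1 ranked 11 in the cKO and 24 in WT.

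A ratio of FPKM values within a library does not depend on how libraries are scaled to each other. The ratios were chosen after the values were seen and are given with no test. Fdft1 over Hmgcs1 was 0.0792 and 0.0924 in the cKO libraries, against 0.581 and 0.483 in the WT libraries. Sqle over Hmgcs1 was 0.0618 and 0.0817 in the cKO, against 0.290 and 0.265 in WT. Idi1 over Hmgcs1 was 0.156 and 0.153 in the cKO, against 0.700 and 0.551 in WT. In all 3 the cKO libraries were far below the WT libraries, so each of these genes changed unequally with Hmgcs1 whatever the scaling between libraries. Fdft1 over Lss, which acts later in the pathway, was 2.17 and 2.44 in the cKO, against 8.83 and 10.03 in WT.

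**Figure D3:**
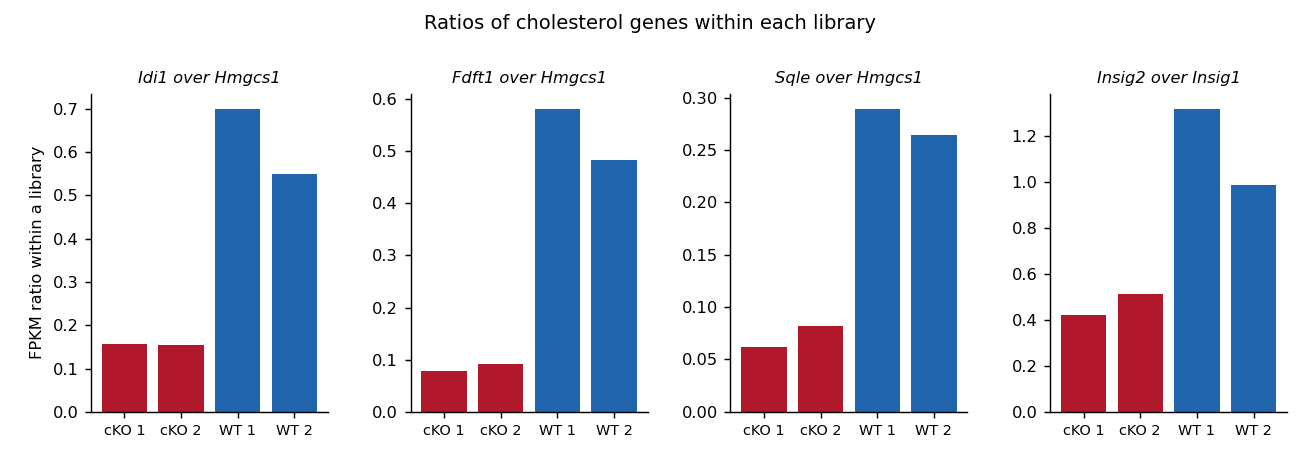
Ratio of the FPKM of Idi1, Fdft1 and Sqle to that of Hmgcs1, and of Insig2 to Insig1, within each library; every bar is 1 library and each panel has its own axis from 0. The cKO bars of Fdft1 over Hmgcs1 stand at 0.0792 and 0.0924, below the WT bars at 0.581 and 0.483, and the same order holds in all 4 panels.

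Among the genes of SREBP and its control, 3 of 5 rose and Insig2 fell. Srebf1, which encodes the SREBP that favours fatty acid genes (ENSMUSG00000020538, chromosome 11: 60199089 to 60222581), had 57.9 and 58.8 CPM in the cKO, against 31.6 and 25.5 CPM in WT. Its means of 58.3 ± 0.582 CPM in the cKO and 28.6 ± 4.28 CPM in WT (SD, n = 2 each) differed 2.04-fold (log2 fold change 1.03, SE 0.16, adjusted p = 0.00211). It shares 109 exon bases with Rai1 on the opposite strand, which also rose (log2 fold change 0.87, adjusted p = 0.0134), a call lost without cKO replicate 2 (adjusted p = 0.0564) and a value of -0.27 on the Sertoli scale. The cKO libraries of Srebf1 lay closer together than its WT libraries and above both. Srebf2, which encodes the SREBP that favours cholesterol genes (ENSMUSG00000022463), had 121.8 and 127.0 CPM in the cKO, against 83.1 and 71.4 CPM in WT (log2 fold change 0.69, SE 0.14, adjusted p = 0.00597). Scap (ENSMUSG00000032485) had 147.9 and 147.8 CPM in the cKO, against 107.2 and 104.3 CPM in WT (log2 fold change 0.48, SE 0.12, adjusted p = 0.0145), which missed the threshold without cKO replicate 1 (adjusted p = 0.0893) or cKO replicate 2 (0.0873). All 3 rises turned into log2 fold changes below 0 on the Sertoli scale.

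The INSIG genes differed from each other. Insig2 (ENSMUSG00000003721, chromosome 1: 121304353 to 121332589), whose transcription is not known to follow SREBP, had 55.8 and 48.7 CPM in the cKO, against 90.5 and 91.1 CPM in WT. It was 1.74-fold lower in the cKO, with means of 52.2 ± 5.01 CPM beside 90.8 ± 0.468 CPM in WT (SD, n = 2 each; log2 fold change -0.80, SE 0.14, adjusted p = 0.00317). Insig1 (ENSMUSG00000045294), a target of SREBP in many tissues, had 60.5 and 43.4 CPM in the cKO, against 31.4 and 42.2 CPM in WT. Its groups did not overlap, and the difference did not pass the test (log2 fold change 0.50, SE 0.23, adjusted p = 0.0974). It passed without cKO replicate 2 (adjusted p = 0.0494) and with libraries scaled to their totals (0.0313), and with 1 library left out it lay between 0.24 and 0.73. The FPKM ratio of Insig2 to Insig1 was 0.421 and 0.513 in the cKO libraries, against 1.32 and 0.985 in the WT libraries.

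In uptake and transport inside the cell, 2 of 4 genes rose and none fell, and on the Sertoli scale none was called higher and 2 were called lower. Scarb1, the receptor SR-BI for cholesterol of high-density lipoprotein (ENSMUSG00000037936, chromosome 5: 125277087 to 125341094), had 256.1 and 222.3 CPM in the cKO, against 101.4 and 121.8 CPM in WT. The means of 239.2 ± 23.9 CPM in the cKO and 111.6 ± 14.5 CPM in WT (SD, n = 2 each) differed 2.14-fold (log2 fold change 1.10, SE 0.16, adjusted p = 0.00157). Npc1, a lysosomal membrane protein that lets cholesterol leave the lysosome, had 57.4 and 54.7 CPM in the cKO, against 31.3 and 28.8 CPM in WT (log2 fold change 0.90, SE 0.14, adjusted p = 0.00209), and it shares 511 exon bases with 3110002H16Rik. In Scarb1 and Npc1 both cKO libraries lay above both WT libraries, with a gap wider than the spread within either genotype. Its soluble partner Npc2 had 131.4 and 122.1 CPM in the cKO, against 70.4 and 104.3 CPM in WT, which missed the threshold (log2 fold change 0.54, SE 0.20, adjusted p = 0.0585) and passed without WT replicate 2 (0.83, adjusted p = 0.00626), while without WT replicate 1 the log2 fold change was 0.28. The carrier protein gene Stard4 had 27.8 and 23.0 CPM in the cKO, against 25.9 and 22.3 CPM in WT, with overlapping groups (log2 fold change 0.078, SE 0.17, adjusted p = 0.716).

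The genes of export and storage had the highest median of the 6 roles. All 3 rose, their median log2 fold change being 1.76, and on the Sertoli scale Abca1 and Abcg1 were still called higher while Soat1 was near 0 (-0.024). Abcg1, an exporter to high-density lipoprotein (ENSMUSG00000024030, chromosome 17: 31057698 to 31115777), had 46.8 and 39.2 CPM in the cKO, against 10.5 and 10.6 CPM in WT. The WT libraries were nearly equal, and both cKO libraries lay above them. It was 4.07-fold higher in the cKO, at 43.0 ± 5.39 CPM beside 10.5 ± 0.083 CPM in WT (SD, n = 2 each; log2 fold change 2.03, SE 0.17, adjusted p = 1.8e-04). Abca1, an exporter that loads cholesterol onto lipid-poor apolipoprotein (ENSMUSG00000015243, chromosome 4: 53030787 to 53159895), had 649.9 and 455.0 CPM in the cKO, against 173.5 and 153.4 CPM in WT. The means of 552.4 ± 137.8 CPM in the cKO and 163.4 ± 14.2 CPM in WT (SD, n = 2 each) differed 3.38-fold (log2 fold change 1.76, SE 0.21, adjusted p = 7.5e-04).

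Soat1, which esterifies cholesterol for storage in lipid droplets (ENSMUSG00000026600, chromosome 1: 156424525 to 156474331), had 352.6 and 346.0 CPM in the cKO, against 150.9 and 171.0 CPM in WT. Both cKO libraries were above both WT libraries. It was 2.17-fold higher in the cKO, at 349.3 ± 4.66 CPM beside 160.9 ± 14.2 CPM in WT (SD, n = 2 each; log2 fold change 1.12, SE 0.14, adjusted p = 9.1e-04). No single library decided the calls of these 3 genes.

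The genes of the set also differed between the cKO libraries themselves. On the scale of log2(CPM + 0.5), 25 of the 30 genes were higher in cKO replicate 1 than in cKO replicate 2. Of the 21822 genes tested, 11201 were. The median difference was 0.22 over the 30 genes, while the median over all genes was 0.0076. Of the 18 synthesis genes, 15 were higher in cKO replicate 1, as were 10 of the 12 other genes of the set. In 9 of the 30 genes the difference was above the 95th percentile of all genes (0.43). These were Sc5d (0.66), Idi1 (0.59), Hmgcs1 (0.57), Ebp (0.53), Msmo1 (0.53), Cyp51 (0.52), Abca1 (0.51), Lss (0.51) and Insig1 (0.48). The exporter Abca1 stood among them, and Srebf1, Srebf2, Scap and Soat1 differed by under 0.1 in size.

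Between WT replicate 1 and WT replicate 2, 12 of the 30 genes were higher in replicate 1 and 18 were lower, with a median difference of -0.032. Of all genes tested, 10871 were higher in WT replicate 1 and 10936 were lower. Only Npc2 (-0.56) lay outside the 5th to 95th percentiles of all genes (-0.56 to 0.65). Cyp51 (-0.47), Msmo1 (-0.44) and Insig1 (-0.42) were also lower in WT replicate 1. Leaving out cKO replicate 1 removed the calls of Hmgcs1, Msmo1, Ebp, Acat2, Fdps, Nsdhl and Scap.

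**Figure D4:**
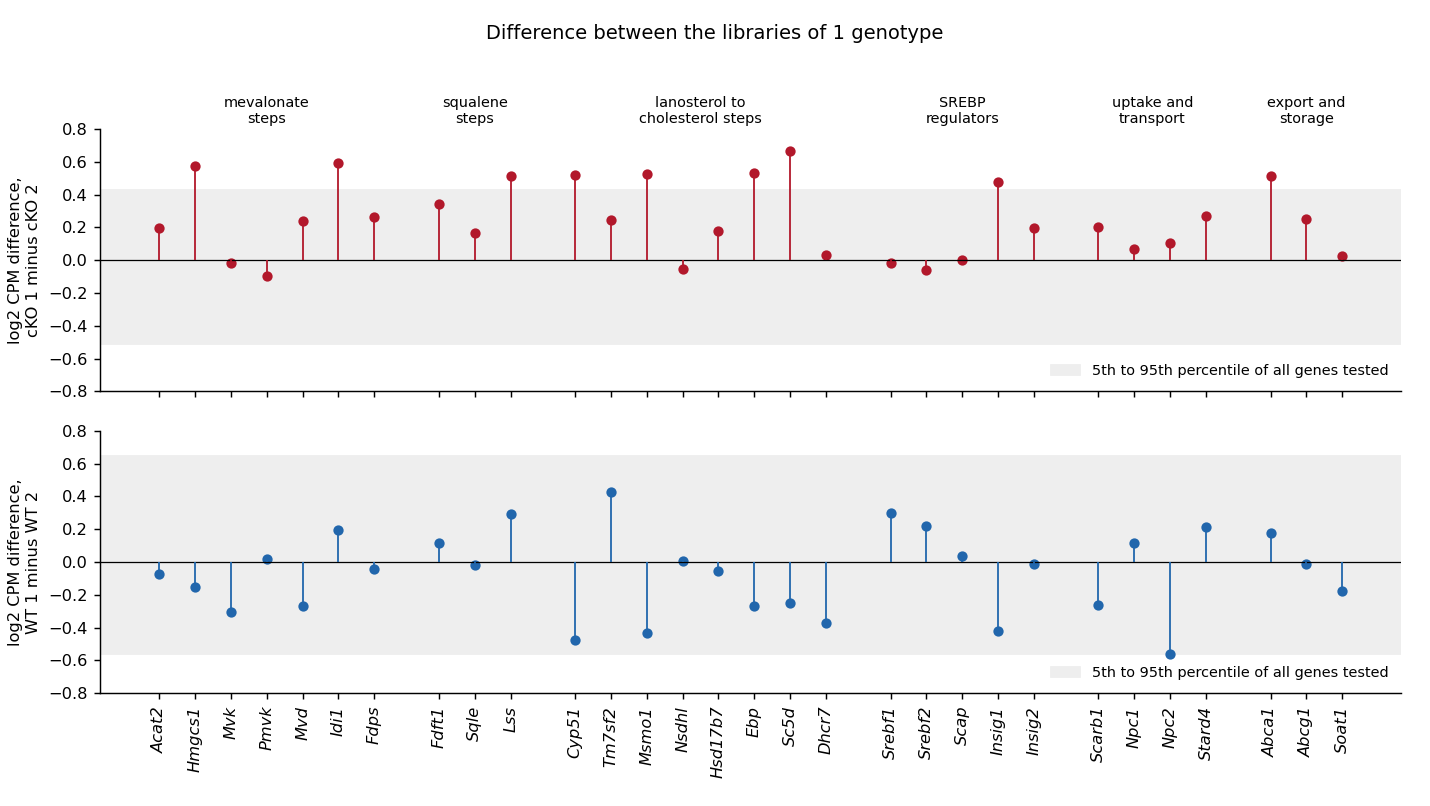
Difference in log2(CPM + 0.5) between the libraries of the cKO (top) and of WT (bottom) for each of the 30 genes, with the grey band from the 5th to the 95th percentile of all genes tested. In the cKO 25 of 30 stems point up and 9 end above the band, while in WT 12 point up and 18 point down.

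Companion genes of the same biology came from lists of their own. Fatty acid synthesis, the other branch driven by SREBP, had 13 of 15 genes called higher and 1 lower, with a median log2 fold change of 1.27, and 1 called higher and 3 lower on the Sertoli scale. Scd2, a stearoyl-CoA desaturase, had 1342 and 1140 CPM in the cKO, against 408.5 and 397.4 CPM in WT (log2 fold change 1.62, SE 0.16, adjusted p = 4.0e-04). Scd1 (1.97, adjusted p = 0.00680) and the elongase gene Elovl6 (1.66, adjusted p = 8.2e-04) rose as well. Acss2, which makes acetyl-CoA from acetate, fell: it had 38.9 and 38.8 CPM in the cKO, against 114.8 and 118.9 CPM in WT (log2 fold change -1.59, SE 0.13, adjusted p = 1.7e-04).

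Of 13 gene names listed for SREBP cleavage and sterol-regulated degradation, 10 were matched in the table. The names without a match were Spring1, March6 and Marchf6. Of the 10, 3 rose and 5 fell, beside 29.2% higher and 34.3% lower over all genes tested. The median log2 fold change of the 10 was -0.40. The proteases Mbtps1 (0.90, adjusted p = 0.00169) and Mbtps2 (1.03, adjusted p = 0.00174), which cut SREBP in the Golgi, and the ubiquitin ligase gene Rnf145 (1.12, adjusted p = 0.00109) rose. Erlin1, an endoplasmic reticulum protein of the degradation machinery, had 33.0 and 32.1 CPM in the cKO, against 123.7 and 130.6 CPM in WT (log2 fold change -1.97, SE 0.13, adjusted p = 7.8e-05). The ubiquitin ligase genes Rnf139 (-1.56, adjusted p = 2.8e-04) and Syvn1 (-1.06, adjusted p = 0.00212) fell too. On the Sertoli scale none of the 10 was called higher and 7 were called lower.

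Other genes of lipoprotein uptake and sterol transport were called higher in 13 of 20 cases and lower in 2, with a median log2 fold change of 0.88, and none higher and 7 lower on the Sertoli scale. The scavenger receptor gene Cd36 (1.88, adjusted p = 0.00388) and the lipoprotein receptor genes Lrp8 (1.72, adjusted p = 8.3e-04) and Lrp1 (1.72, adjusted p = 0.00552) rose. Stard6, a carrier of the START family found in male germ cells, had 0.350 and 0.520 CPM in the cKO, against 42.6 and 38.3 CPM in WT (log2 fold change -6.54, SE 0.25, adjusted p = 1.5e-05). Gramd1c, of a family that moves cholesterol from the plasma membrane to the endoplasmic reticulum, had 3.48 and 4.57 CPM in the cKO, against 135.7 and 145.6 CPM in WT (log2 fold change -5.13, SE 0.20, adjusted p = 1.5e-05). These 2 falls were larger than that of any of the 30 genes.

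Of 14 other genes of export, LXR and cholesteryl esters, 12 were tested; 6 rose and 1 fell, with a median log2 fold change of 0.52, and none was called higher and 5 lower on the Sertoli scale. The ester hydrolase gene Nceh1 (0.96, adjusted p = 0.00373), the phospholipid transfer protein gene Pltp (0.89, adjusted p = 0.00326) and Abca3 (0.70, adjusted p = 0.0179) rose, and Abca3 lost its call without WT replicate 2 (adjusted p = 0.0604) or cKO replicate 2 (0.0951). Abca5 fell (-1.76, adjusted p = 1.8e-04). The isoprenoid branch uses the same precursors for protein prenylation, dolichol and ubiquinone. Of 13 of its genes, 4 rose and 2 fell, beside 29.2% higher and 34.3% lower over all genes tested. Their median was 0.086, and all 13 were called lower on the Sertoli scale. Zmpste24, a protease that trims prenylated proteins, rose (0.71, adjusted p = 0.00716), as did the prenyltransferase subunit gene Rabggtb (0.61, adjusted p = 0.0201) and the synthase gene Ggps1 (0.46, adjusted p = 0.0231). All 3 calls were lost without cKO replicate 1 (adjusted p = 0.0655, 0.158 and 0.158), that of Rabggtb also without WT replicate 2 (0.0630) and that of Ggps1 without cKO replicate 2 (0.0841) and with the replicate block (0.0598). The methyltransferase gene Icmt (-1.55, adjusted p = 0.00550; -0.99 without WT replicate 1) and the prenyltransferase subunit gene Fnta (-1.36, adjusted p = 6.3e-04) fell.

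Steroid hormone and oxysterol genes, which use cholesterol, were called higher in 10 of 16 cases and lower in 2, with a median log2 fold change of 1.04, and 2 higher and 3 lower on the Sertoli scale. Star, which brings cholesterol into the mitochondria of steroid-making cells, had 67.3 and 191.1 CPM in the cKO, against 14.7 and 25.3 CPM in WT (log2 fold change 2.69, SE 0.52, adjusted p = 0.00504; 1.76 without cKO replicate 2). Cyp27a1, which makes the LXR ligand 27-hydroxycholesterol, had 76.3 and 71.0 CPM in the cKO, against 24.7 and 22.7 CPM in WT (log2 fold change 1.64, SE 0.14, adjusted p = 2.3e-04). Cyp17a1, an enzyme of androgen synthesis, rose (1.54, adjusted p = 0.00327), and the 24-hydroxylase gene Cyp46a1 fell (-2.45, adjusted p = 5.1e-04).

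**Figure D5:**
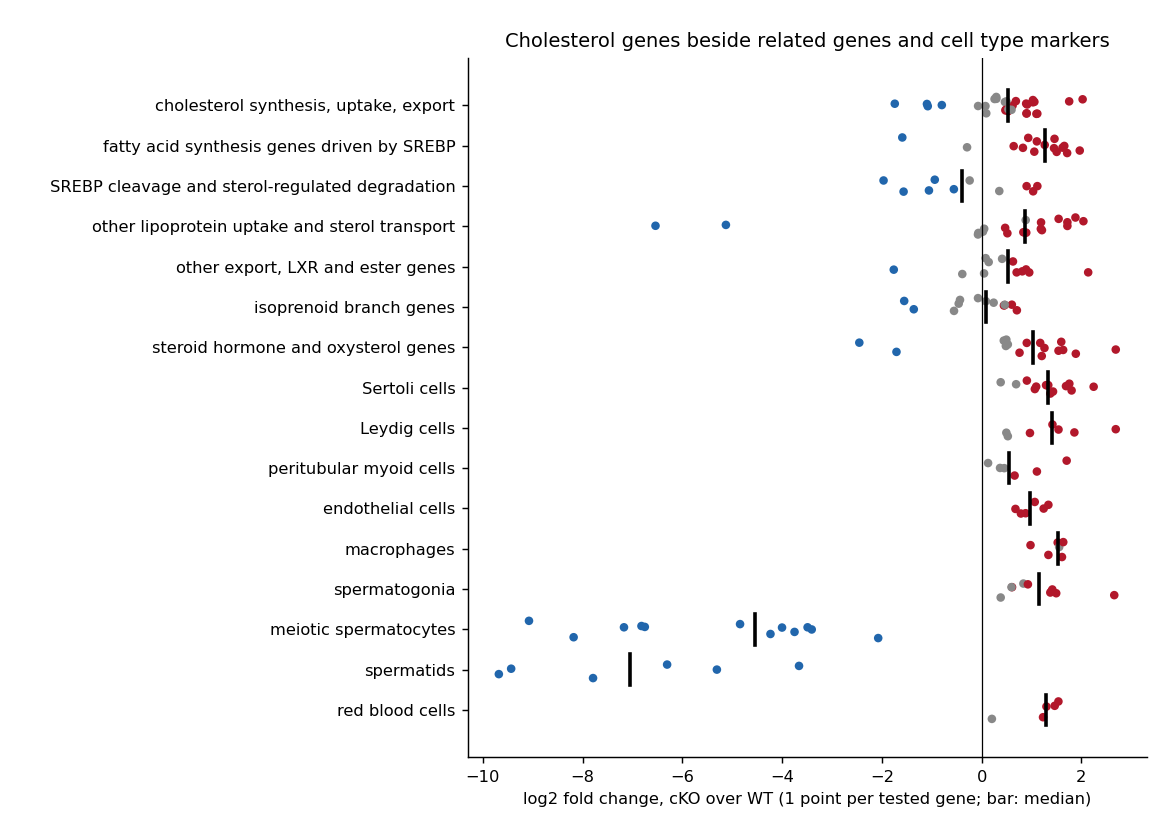
Log2 fold change, cKO over WT on the TMM scale, of each tested gene in the cholesterol set, its companion lists and lists of cell type markers; red was called higher, blue lower, grey neither, and black bars are medians. The median of the cholesterol set is 0.54, below that of the Sertoli markers at 1.33 and above that of the meiotic spermatocyte markers at -4.54, and scaling to the Sertoli markers turns the median of the cholesterol set to -0.61.

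Markers of the testis cell types also differed between the genotypes, some lists higher in the cKO and others lower. Sertoli markers are given above. Of the 7 Leydig cell markers, 5 were called higher and none lower, with sums of 871.2 and 914.7 CPM in the cKO, against 333.4 and 463.9 CPM in WT, and 4 of the 7 (Star, Cyp11a1, Hsd3b1 and Cyp17a1) also stand in the steroid list. Of the 6 macrophage markers, 5 were called higher and none lower, with sums of 280.9 and 334.8 CPM in the cKO, against 131.9 and 133.4 CPM in WT. No marker of these cell types was at 0 in any library.

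All 12 markers of meiotic spermatocytes fell, with sums of 149.4 and 233.6 CPM in the cKO, against 5175 and 5546 CPM in WT, and none was at 0. Of the 10 spermatid markers, 6 were tested and all 6 fell. The 10 summed to 0.911 and 0.986 CPM in the cKO, against 104.2 and 94.7 CPM in WT. Most of the WT sum was Acr, with 91.7 and 84.02 CPM in WT, against 0.304 and 0.493 CPM in the cKO. The spermatid sum therefore rests largely on that gene. Actl7a and Catsper1 were at 0 in both cKO libraries, and Prm1 and Tnp2 were at 0 in both WT libraries. Of the 10 spermatogonial markers, 7 were called higher and none lower, with sums of 528.2 and 559.9 CPM in the cKO, against 287.8 and 314.7 CPM in WT, and Dmrt1 stands in both the spermatogonial and the Sertoli list. The sums of peritubular myoid, endothelial and red blood cell markers were also higher in both cKO libraries than in both WT libraries. Called higher were 3 of 6 peritubular myoid, 6 of 6 endothelial and 4 of 5 red blood cell markers, and none was called lower. Markers of the epididymis summed to 0 and 0.0274 CPM in the cKO, against 5.73 and 11.99 CPM in WT, where Crisp1 had 4.62 and 10.4 CPM; 5 of these 6 markers were at 0 in both cKO libraries and Lcn8 was at 0 in every library. The part of these cell type differences, of the mitochondrial share and of the epididymal reads in the changes of the cholesterol genes was not tested.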

How the data were processed

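Whole-testis RNA of 4 libraries (2 of Sympk cKO and 2 of wild-type mice at postnatal day 18) was sequenced. The submitters' processing notes name HISAT2 and the build GRCm38, and the sources used here give no counting tool, strand setting or annotation. The deposited counts are whole reads per gene, not normalized. Beside them the authors deposited FPKM values, which equalled the counts divided by the library total and 1 fixed length per gene, within 0.01% in all 12705 genes with over 100 counts in every library. FPKM was used to compare levels between genes and for ratios within a library.

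Counts were filtered with filterByExpr, TMM-scaled and tested with edgeR 4.0.16 (R 4.3.3), by its two-sided quasi-likelihood test with genotype as the single term and Benjamini-Hochberg adjustment over the 21822 genes tested and a threshold of 0.05. The test was also run on simulated counts in which few genes changed, equally in both directions. That run does not show how the test behaves here, where 63.4% of the genes tested were called. DESeq2 1.42.0 was an alternative. Levels are TMM-scaled CPM, with the mean ± SD of 2 libraries; folds are 2 to the power of the fitted log2 fold change. One CPM is 1 count in 1000000. The SE of a log2 fold change was derived from the test, as its absolute value divided by the square root of the F statistic. The libraries of a genotype differed far beyond sampling noise (chi-square per gene 16.5 in the cKO and 35.2 in WT) and were kept as separate samples. The labels name no separate animals behind them, and the p-values therefore reflect no more than the spread among these 4 libraries, which could be technical. The replicate numbers did not pair the samples (correlation -0.11 between the genotypes of the number 1 minus number 2 differences).

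The 30 genes and all gene lists were chosen with earlier results of these data known. All 30 are named, with every library's level; the log2 fold change, its SE and adjusted p are given in full for those called with a log2 fold change of at least 1 in size and for the SREBP regulators. Of each companion list, up to 3 genes called in each direction are named, the largest with a mean of at least 5 CPM. Exon overlaps came from GENCODE M21 and promoters from RefSeq (GRCm38.p6).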

Additional observations from a re-analysis of the deposited data

How the results depend on the processing

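With 2 libraries per genotype, 1 library can decide a call: leaving out 1 library gave 9 to 16 of the 30 genes called higher and 4 in every case lower, with a median log2 fold change of 0.49 to 0.67, and 4630 to 5798 of all genes called higher and 6320 to 7089 lower. DESeq2 tested 26859 genes (5588 higher, 7523 lower), RLE size factors 21822 (6128 and 7648) and no filter on low counts 33859 (6124 and 7769). Each left 16 of the 30 genes called higher and 4 lower. The fits with 1 library left out tested 22534 to 22808 genes. A filter of at least 5 CPM tested 13299 genes and called 4608 higher and 4620 lower. Of the 30 genes it called 18 higher and 4 lower, Mvd and Npc2 being added. Library totals, the replicate blocks and the Sertoli scale tested the same 21822 genes as the main fit. Library totals alone shifted the median of all genes to 0.20 and gave 7651 of all genes higher and 6423 lower, and 20 and 4 of the 30 genes, with Mvd, Cyp51, Insig1 and Npc2 added and Tm7sf2 at 0.15.

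With the replicate number as a block, 5632 of all genes were called higher and 6937 lower, and 14 and 4 of the 30 genes, with a median of 0.55; Fdps and Nsdhl lost their calls, and no other of the 30 changed. With crossed numbers as the block, chosen after seeing the data, 6145 and 7267 of all genes and 19 and 4 of the 30 were called.

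Scaling to the Sertoli markers gave 475 of all genes higher and 13186 lower, and 2 and 17 of the 30 genes, with a median of -0.61. On that scale log2 fold changes turned negative in Acat2 (-0.53), Hmgcs1 (-0.25), Mvk (-0.88), Pmvk (-1.05), Mvd (-0.68), Fdps (-0.62), Lss (-0.87), Cyp51 (-0.55), Msmo1 (-0.12), Nsdhl (-0.66), Hsd17b7 (-0.090), Ebp (-0.24), Sc5d (-0.86), Dhcr7 (-0.24), Srebf1 (-0.12), Srebf2 (-0.46), Scap (-0.66), Insig1 (-0.65), Scarb1 (-0.046), Npc1 (-0.25), Npc2 (-0.60), Stard4 (-1.08) and Soat1 (-0.024). When 1 library was left out, Sc5d ran from -0.077 to 0.60, Stard4 from -0.062 to 0.22 and Tm7sf2 from -0.30 to 0.17. The cause of these shifts was not tested.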
